A study of Drosophila melanogaster with 4 samples.

Results

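*Crys*, *retinin*, *Cpr72Ec*, *CG5597* and *Ccp84Ag* were followed across the cell types and ages of the adult fly eye. They were taken by symbol as a set of corneal lens genes and make up 5 of the 13964 genes in the tables. For *CG5597* no tie to the lens or its cuticle is shown here, and the study reports it as a marker of cone cells. All 5 were counted in all 4 libraries. They had been picked with their pattern over the cell types of these same libraries in view, so their levels are described here with no test. Single cells of *Canton-S* *Drosophila melanogaster*, a wild-type strain, were sequenced from dissociated compound eyes with 3' droplet chemistry, in the presence of Actinomycin D, a drug that blocks transcription. There were 4 libraries, from males 1 day, 3 days and 7 days after eclosion and from females 1 day after eclosion. Each was made from pooled eyes and stood alone for its age and sex, so that library, age and sex cannot be told apart.

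The outside of each unit eye, or ommatidium, is a clear corneal lens, a dome of cuticle built from chitin and proteins. It is laid down in the pupa by the cells lying directly beneath it, the cone cells and the primary pigment cells, while secondary and tertiary pigment cells fill the lattice between neighbouring ommatidia. *Crys* encodes Drosocrystallin and *retinin* encodes Retinin, both proteins of the lens, and Retinin also coats the corneal surface. *Cpr72Ec* carries a chitin-binding domain of the insect cuticle protein family and is another lens protein. *Ccp84Ag* belongs to a row of cuticle protein genes at 84A, and *CG5597* is an uncharacterized gene.

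In the BDGP6 (dm6) annotation, *Crys* (FBgn0005664) lies on 2L:11944129-11947131, plus strand, with 2 transcripts, and its longest coding sequence encodes 477 amino acids. *retinin* (FBgn0040074) lies on 3L:16331933-16332789, plus strand, and encodes 191 amino acids. *Cpr72Ec* (FBgn0036619) lies on 3L:16365894-16367340, minus strand, a gene of 1 exon that encodes 429 amino acids. *CG5597* (FBgn0034920) lies on 2R:23886973-23888777, plus strand, with 4 exons and 260 amino acids, and overlaps *DCP1* on the other strand. *Ccp84Ag* (FBgn0004777) lies on 3R:6686728-6688039, plus strand, and encodes 191 amino acids. *retinin* and *Cpr72Ec* lie 33104 bases apart on the same chromosome arm, with 13 genes between them.

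In order of age, the male libraries and then the female library held 16275, 8701, 6335 and 8765 barcodes with medians of 3161, 3168, 1872 and 4465 unique molecular identifiers (UMIs, counts of captured RNA molecules). Pairs of libraries shared 12 to 37 barcode sequences. Clusters were built without the 5 genes and without the other cuticle genes described below, and were named from marker genes. They gave 28, 18 and 24 cone-like cells and 115, 78 and 44 primary pigment-like cells in males of 1, 3 and 7 days, and none of either in females. Secondary and tertiary pigment-like cells, called other pigment-like below, numbered 4123, 1645, 1037 and 406, and R1-6-like outer photoreceptors 4114, 3294, 2460 and 3221. Markers kept out of the naming were checked next. *ct* (Cut, the transcription factor of cone cells) was at 5083, 4291 and 4448 CPM (UMI counts scaled to a fixed total for each class and library) in cone-like cells against 113, 142 and 249 CPM in primary pigment-like cells. *wrapper*, a marker of primary pigment cells, was at 320, 176 and 222 CPM in primary pigment-like cells, 64.9, 66.8 and 0 CPM in cone-like cells and up to 1.51 CPM in other pigment-like cells. The photoreceptor markers did not keep to photoreceptors, since *ninaE*, the rhodopsin gene of R1-6, was still at 9280, 19200 and 34841 CPM in cone-like cells. None of the 5 hemocyte and 6 muscle markers had a UMI in cone-like cells, and the 5 glial markers summed to 2087, 2154 and 2792 CPM there with *repo* and *moody* at 0.

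The 5 genes fell into different places in the eye. *retinin* was the most abundant transcript of primary pigment-like cells at every age. *Crys* was shared between cone-like and primary pigment-like cells. *CG5597* and *Ccp84Ag* had their highest levels in cone-like cells, and *Cpr72Ec* had its highest level in other pigment-like cells and was nearly missing from the other 2 classes. Intervals below are 95% limits from the counts of each library (exact Poisson for levels, exact Clopper-Pearson for shares of cells) and cover counting error only.

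**Figure D1:**
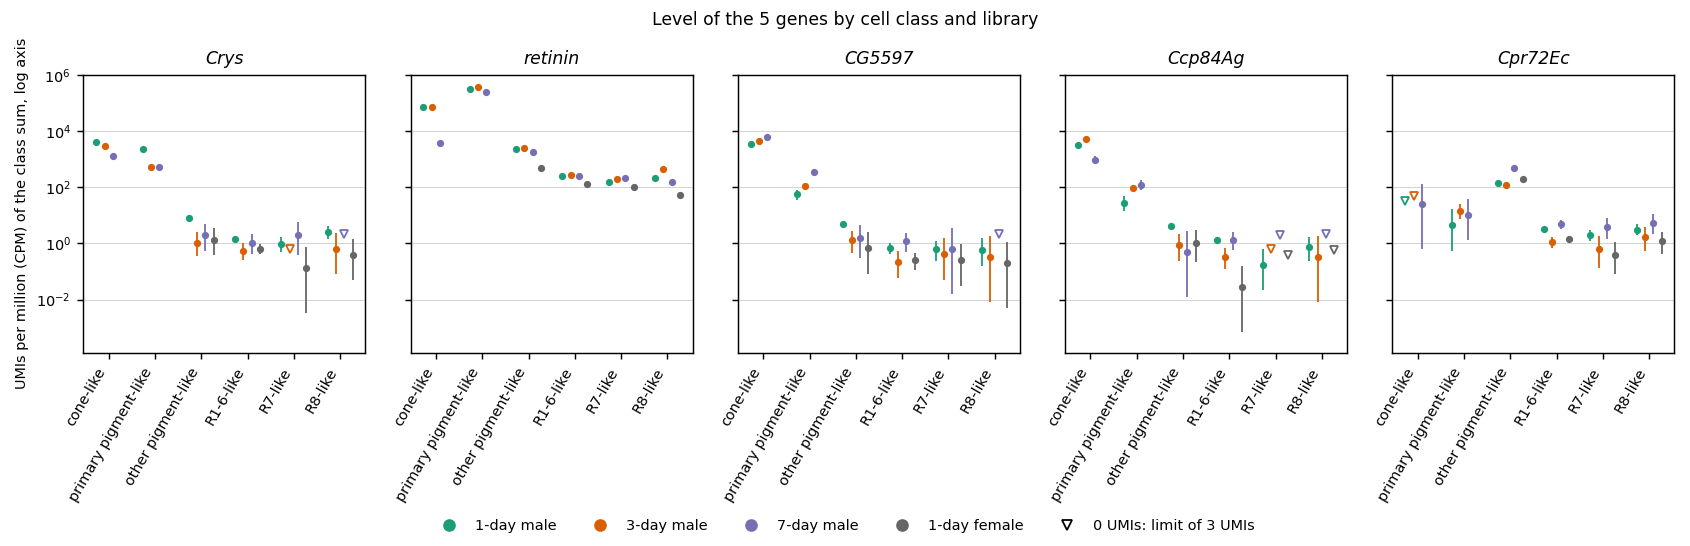
Level of each of the 5 genes (CPM of the summed counts of a class, log axis) in 6 cell classes, 1 point per library with its 95% counting interval, and an open triangle at the level of 3 UMIs where a class had none. *retinin* reached 246451 to 376028 CPM in primary pigment-like cells, *Crys*, *CG5597* and *Ccp84Ag* were highest in cone-like cells on average, and *Cpr72Ec* was highest in other pigment-like cells.

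*retinin* took 315743 CPM (314086 to 317406), 376028 CPM (374688 to 377371) and 246451 CPM (244217 to 248700) of primary pigment-like cells at 1, 3 and 7 days, and 112 of 115, 78 of 78 and 44 of 44 of these cells had a UMI of it. It ranked first among all genes there in all 3 male libraries. Cone-like cells had 73343, 71607 and 3929 CPM of it and other pigment-like cells 2264, 2473 and 1785 CPM. The 3 classes did not overlap over the male libraries. The ratio of primary pigment-like to other pigment-like cells was 139, 152 and 138, so it varied little between ages, whereas the ratio of primary pigment-like to cone-like cells was 4.31, 5.25 and 62.7. Because *retinin* alone fills so much of a primary pigment-like cell's RNA, it lowers the CPM of every other gene in that cell. Leaving mitochondrial genes, *ninaE* and the 5 genes out of the totals raised log2 levels there by 0.67, 0.76 and 0.51 at 1, 3 and 7 days, against 0.31, 0.34 and 0.16 in cone-like cells and 0.09, 0.12 and 0.07 in other pigment-like cells.

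Single cells showed how unevenly the *retinin* of cone-like cells was held. In primary pigment-like cells the median cell gave 24.4%, 32.5% and 25.0% of its UMIs to *retinin* at 1, 3 and 7 days, and the highest cell 55.2%, 48.7% and 34.0%. In cone-like cells the medians were 1.83%, 0.327% and 0.0150%, with highest cells at 20.6%, 24.6% and 4.56%. The 3 cone-like cells with the most *retinin* held 69.5%, 84.2% and 86.2% of the *retinin* UMIs of their class. At least 5% of UMIs came from *retinin* in 7 of 28, 4 of 18 and 0 of 24 cone-like cells, and all 7 and all 4 of these also carried a UMI of a primary pigment marker. Cone-like cells with a primary pigment marker, 16, 9 and 5 in number, had 90812, 103447 and 6366 CPM of *retinin*, and those with none, 12, 9 and 19 in number, had 7623, 2073 and 2947 CPM. Cells with a primary pigment marker held 6633 and 4250 *retinin* UMIs of the class at 1 and 3 days, against 148 and 39 in those without. At 7 days the counts were 74 and 85 UMIs, so the larger part lay in cells without the marker. The direction was the same within the primary pigment-like cells of 1-day males, where the 83 cells with a primary pigment marker had 360163 CPM and the 32 without had 25236 CPM. In each of these splits the cells with a marker had more UMIs per cell on average. A marker is more easily found in a deeper cell, so cells without a marker UMI are not shown to lack the marker. The part of depth in these differences was not tested. What part doublets or free RNA had in the *retinin* of cone-like cells was not tested, and a doublet caller with a preset share of removed barcodes took no cone-like cell away.

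At 3 days the primary pigment-like cells came from 2 clusters. One held 43 cells with a median of 19297 UMIs, *ninaE* at 315 CPM and *retinin* at 392081 CPM. The other held 35 cells with a median of 1856 UMIs, *ninaE* at 24366 CPM and *retinin* at 231274 CPM. The cluster with fewer UMIs and more *ninaE* had the lower *retinin* level, while *Crys* was at 542 CPM (490 to 598) and 661 CPM (495 to 864) in the clusters, with overlapping intervals.

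**Figure D2:**
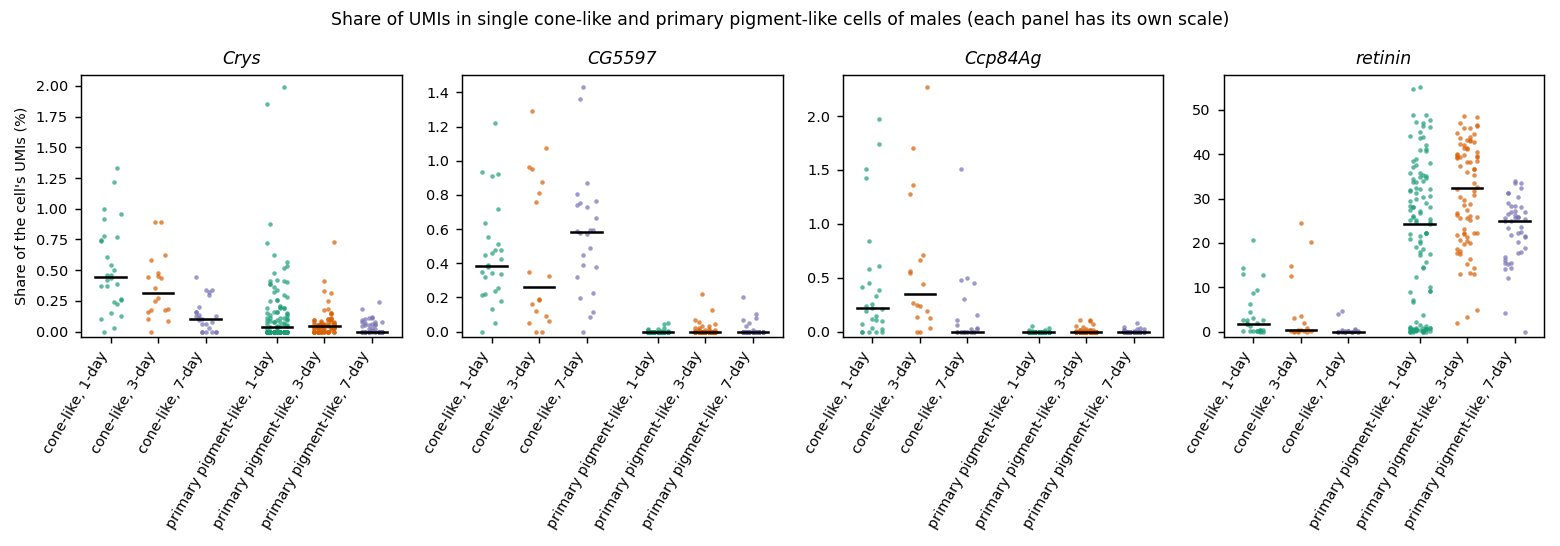
Share of a cell's UMIs (%) taken by *Crys*, *CG5597*, *Ccp84Ag* and *retinin* in each cone-like and primary pigment-like cell of the 3 male libraries, with a bar at the median and a scale of its own for each gene. *CG5597* and *Ccp84Ag* had medians of 0% in primary pigment-like cells at all 3 ages, and *retinin* medians were 24.4%, 32.5% and 25.0% there.

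*Crys* was at 4283 CPM (3872 to 4726), 3005 CPM (2582 to 3478) and 1334 CPM (1002 to 1741) in cone-like cells of 1, 3 and 7 days. In primary pigment-like cells it was at 2303 CPM (2164 to 2449), 554 CPM (504 to 608) and 556 CPM (455 to 673). Cone-like cells were higher in each male library, by 1.86, 5.43 and 2.40 times, but the ranges of the classes over the libraries overlapped. The direction at 1 day turned when cells were picked by a gate on markers in place of clusters, with 1528 CPM (1381 to 1686) in cone-like and 2795 CPM (2621 to 2977) in primary pigment-like cells, while the gated levels at 3 and 7 days were 2318 and 1071 CPM in cone-like against 553 and 524 CPM in primary pigment-like cells. The gene was found in 27 of 28, 17 of 18 and 18 of 24 cone-like cells and in 62 of 115, 58 of 78 and 21 of 44 primary pigment-like cells. A few cells carried much of it in primary pigment-like cells of 1-day males, where 4 of 115 cells held 50% of the *Crys* UMIs. Other pigment-like cells had *Crys* levels of 8.17, 1.08 and 2.01 CPM and R1-6-like cells of 1.4, 0.545 and 1.04 CPM, with UMIs in 1.65%, 0.182% and 0.289% of the former and 1.19%, 0.213% and 0.244% of the latter. Median depths were 1496, 1755 and 1251 UMIs in other pigment-like and 7064, 4105 and 1919 UMIs in R1-6-like cells. The levels in these last 2 classes overlapped over the libraries.

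*CG5597* was at 3526 CPM (3154 to 3930), 4558 CPM (4033 to 5132) and 6153 CPM (5412 to 6966) in cone-like cells, with a UMI in 27 of 28, 16 of 18 and 23 of 24 of them. Primary pigment-like cells had 56.7, 108 and 350 CPM, in 8 of 115, 16 of 78 and 7 of 44 cells. The cone-like level was 62.2, 42.1 and 17.6 times higher, and the classes did not overlap. Other pigment-like cells had 5.10, 1.30 and 1.51 CPM and R1-6-like cells 0.673, 0.218 and 1.18 CPM. In each male library, 2 of the primary pigment-like cells held 50% of the class's *CG5597* UMIs.

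*Ccp84Ag* followed the same order of classes. It was at 3256 CPM (2898 to 3645), 5326 CPM (4757 to 5944) and 939 CPM (664 to 1289) in cone-like cells, where 23 of 28, 16 of 18 and 11 of 24 cells had a UMI. Primary pigment-like cells had 27.2, 97.1 and 127 CPM, so cone-like cells were 120, 54.9 and 7.39 times higher. Other pigment-like cells had 4.13, 0.864 and 0.503 CPM, which overlapped the 1.32, 0.327 and 1.33 CPM of R1-6-like cells. Of the 6 other genes of the 84A cuticle row, *Ccp84Aa* to *Ccp84Af*, none had more than 1 UMI in any library and none had a UMI in cone-like or primary pigment-like cells.

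*Crys*, *CG5597* and *Ccp84Ag* occurred together in single cone-like cells. All 3 had a UMI in 22 of 28, 14 of 18 and 7 of 24 cone-like cells at 1, 3 and 7 days, and none of them in 0, 0 and 1 cell. At 7 days, 11 of 24 cells had *CG5597* with *Ccp84Ag*, 12 had *CG5597* alone and 0 had *Ccp84Ag* alone, at a median depth of 1010.5 UMIs against 2030 at 1 day. In primary pigment-like cells all 3 were found in 3 of 115, 8 of 78 and 5 of 44 cells.

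*Cpr72Ec* was distributed the other way round. It was at 146 CPM (139 to 153), 126 CPM (116 to 137) and 496 CPM (465 to 528) in other pigment-like cells of 1-, 3- and 7-day males and at 194 CPM (178 to 210) in those of 1-day females. Cone-like cells had 0, 0 and 1 UMI of it, and a count of 3 UMIs would be a level of 32.4 and 50.1 CPM at 1 and 3 days. Against these levels, other pigment-like cells were 4.51-fold and 2.52-fold higher. With the counts of 0, the counting intervals of these ratios had lower ends of 3.66 at 1 day and 2.05 at 3 days. At 7 days other pigment-like cells were 20.1 times higher (3.59 to 793) than cone-like cells. Primary pigment-like cells had 4.54, 14.9 and 10.6 CPM from 2, 12 and 2 UMIs, or 32.2, 8.46 and 46.8 times less than other pigment-like cells. R1-6-like cells had 3.34, 1.15, 4.89 and, in females, 1.42 CPM, so that other pigment-like cells exceeded them 43.9, 110, 101 and 136 times.

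Only a minority of other pigment-like cells had a *Cpr72Ec* UMI, 758 of 4123, 151 of 1645, 207 of 1037 and 173 of 406 in the 1-, 3- and 7-day male and 1-day female libraries, where the median depths were 1496, 1755, 1251 and 5925 UMIs. These were 18.4%, 9.18%, 20% and 42.6% of the cells. The same share in R1-6-like cells was 2.33%, 0.516%, 0.935% and 1.24% at 7064, 4105, 1919 and 8372 UMIs. When each cell was thinned to 1000 UMIs, leaving out 1461, 503, 423 and 0 shallower cells, the shares in other pigment-like cells were 9.69%, 6.30%, 17.3% and 12.1%. The female share was above that of 7-day males before thinning and below it after. *Cpr72Ec* was found in every cluster of other pigment-like cells, with levels of 69.6 to 174 CPM over 5 clusters at 1 day, 72.5 to 212 CPM over 3 clusters at 3 days and 314 to 635 CPM over 3 clusters at 7 days. The cluster with the highest level was the one with the deepest cells and the least *ninaE* at each age, with 4296, 5698 and 3600 UMIs per cell. Whether depth or *ninaE* had a part in this was not tested. No cluster at 7 days was as low as the highest cluster of 1 or 3 days.

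*Cpr66D*, which like *Cpr72Ec* encodes a cuticle protein known from the lens, was named after its values were seen. It had 4.57, 3.46 and 1.51 CPM in other pigment-like cells, 0 UMIs in cone-like cells and 6.81, 2.49 and 5.30 CPM from 3, 2 and 1 UMIs in primary pigment-like cells.

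A background count shows how common such differences were among the 7623 genes with at least 50 UMIs over the classes. At least 4-fold higher levels in each male library, on the log2(CPM + 10) scale, were found for 3.21% of genes in cone-like over primary pigment-like cells (*CG5597* and *Ccp84Ag* among them) and for 0.394% in the opposite direction (*retinin*). For primary pigment-like over other pigment-like cells it was 1.08% (*Crys*, *retinin* and *CG5597*) and for the opposite direction 2.13% (*Cpr72Ec*). For cone-like over other pigment-like cells it was 2.74% (*Crys*, *CG5597* and *Ccp84Ag*) and for the opposite direction 2.43% (*Cpr72Ec*). Against R1-6-like cells it was 5.69% for cone-like cells (*Crys*, *retinin*, *CG5597* and *Ccp84Ag*), 3.48% for primary pigment-like cells (*Crys*, *retinin* and *CG5597*) and 6.55% for other pigment-like cells (*retinin* and *Cpr72Ec*). Since the 5 genes were chosen for these contrasts, their presence in these counts is a description.

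The classes were small, so most of the RNA of these genes came from very few barcodes. Primary pigment-like cells made up 0.707%, 0.896% and 0.695% of barcodes in males of 1, 3 and 7 days and held 65.3%, 87.8% and 80.2% of all *retinin* UMIs and 54.7%, 59.0% and 55.9% of all *Crys* UMIs. Cone-like cells made up 0.172%, 0.207% and 0.379% of barcodes and held 21.3%, 23.9% and 28.7% of *Crys*, 62.2%, 57.2% and 73.2% of *CG5597* and 58.7%, 63.8% and 41.8% of *Ccp84Ag* UMIs. At 7 days a further 18.7% of *Ccp84Ag* UMIs lay in mixed photoreceptor clusters, of 91 UMIs in all. Other pigment-like cells held 81.0%, 88.2% and 90.1% of *Cpr72Ec* UMIs in males and 66.1% in females.

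**Figure D3:**
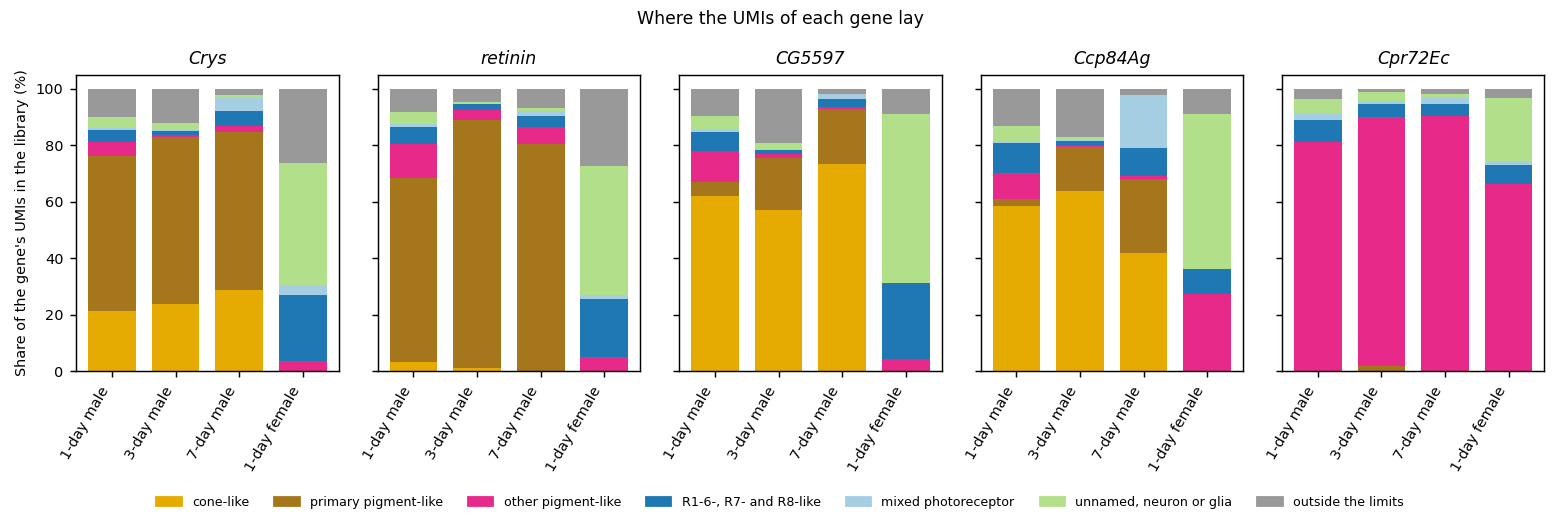
Share of each gene's UMIs (%) by class of barcode in each library, stacked to 100%. In males most *retinin* lay in primary pigment-like cells, most *CG5597* in cone-like cells and most *Cpr72Ec* in other pigment-like cells, and the female bars have no cone-like or primary pigment-like part.

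Outside these classes the levels were low and, except for *retinin*, at or under 5.29 CPM in photoreceptors of males. *retinin* stood at 256, 267 and 255 CPM in R1-6-like cells of 1-, 3- and 7-day males and at 136 CPM in those of females. R7-like cells had 152, 196 and 216 CPM and R8-like cells 215, 473 and 159 CPM, so R8-like and R1-6-like cells overlapped over the male libraries. A *retinin* UMI was found in 73.4%, 49.3%, 28.3% and 20.4% of R1-6-like cells, whose median depths were 7064, 4105, 1919 and 8372 UMIs, and in 97.4%, 100% and 100% of primary pigment-like cells at 1241, 4989 and 1990.5 UMIs. After thinning each cell to 1000 UMIs, leaving out 166, 294, 475 and 219 shallower cells, 25.0%, 20.2%, 14.5% and 5.13% of R1-6-like cells kept one. The shares differed between ages where the levels in CPM of the 3 male libraries differed little, so no order of the ages is read from them. R1-6-like cells with at least 5% *retinin* numbered 1, 1, 3 and 6.

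The ratio of *retinin* to *Crys* UMIs differed between classes. In all barcodes together, where most UMIs of both genes came from primary pigment-like and cone-like cells in males, it was 115 (110 to 120), 456 (425 to 491) and 309 (268 to 358) in males of 1, 3 and 7 days and 263 (219 to 320) in females. In R1-6-like cells it was 182.5 (138 to 246), 490 (266 to 1023), 246 (119 to 613) and 213 (142 to 336). These intervals overlapped those of all barcodes in the 3-day and 7-day males and the females, and in 1-day males the R1-6-like ratio was the higher. The part of free RNA in these levels was not tested. Other pigment-like cells had 277 (226 to 343), 2290 (981 to 7053), 887.5 (346 to 3259) and 372 (145 to 1367), which in the 1-day and 3-day males lay above the ratio of all barcodes. Primary pigment-like cells had 137, 679 and 443 and cone-like cells 17.1, 23.8 and 2.94. *retinin* in R1-6-like cells was 11.8%, 3.45%, 7.76% and 34.7% of its level in all barcodes of the library, and in other pigment-like cells 105%, 31.9%, 54.3% and 130%. Removing 5% of each class sum as the profile of all barcodes lowered the mean *retinin* level of R1-6-like cells from 259 to 83.4 CPM and that of *Crys* from 0.994 to 0.313 CPM. At 3 days *retinin* and *Crys* stood at 3.45% and 3.21% of their levels in all barcodes, less than the 5% removed. The removal therefore left no count of either in that library, which lowers both means.

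**Figure D4:**
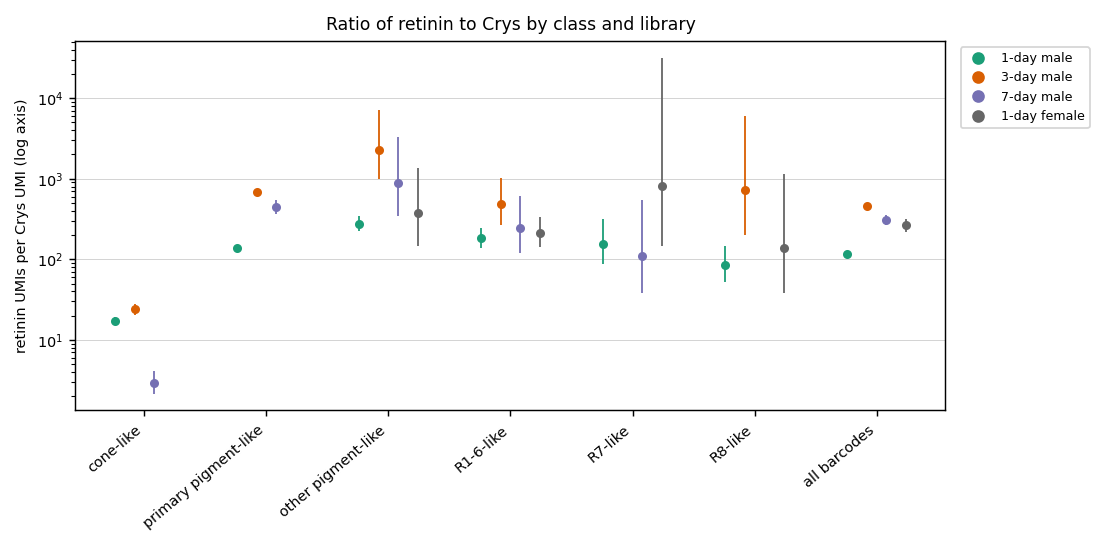
*retinin* UMIs per *Crys* UMI (log axis) by cell class and for all barcodes, 1 point per library with its 95% counting interval; classes with no *Crys* UMI are left out. The ratio was 2.94 to 23.8 in cone-like cells and 115 to 456 over all barcodes.

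The 5 genes differed in how their levels stood at 1, 3 and 7 days, each age being 1 library, so no test of age was possible. In cone-like cells the ratio of 7 days to 1 day was 0.312 (0.230 to 0.415) for *Crys*, 0.288 (0.200 to 0.405) for *Ccp84Ag* and 1.74 (1.47 to 2.06) for *CG5597*. *Ccp84Ag* was 1.64 times higher at 3 days than at 1 day and lower at 7 days, and *CG5597* was 1.29 times higher at 3 days. Shares of all genes past 2-fold, given here and below for comparison, were counted on the log2(CPM + 10) scale, whereas the ratios of the 5 genes are plain ratios of CPM. At least 2-fold higher and lower levels at 7 days were found for 18.1% and 20% of the 1017 genes with 20 or more UMIs in cone-like cells, so differences of this size were common between these small classes. With cone-like cells that had a primary pigment marker left out, the ratio of *CG5597* was 0.999 and that of *Crys* 0.200. In cone-like cells picked by a gate on markers in place of clusters, the ratios of *Crys*, *Ccp84Ag* and *CG5597* were 0.701, 0.786 and 3.04. *retinin* was 18.7-fold lower at 7 days in the class as a whole, with a ratio of 0.0536, and the ratio was 0.387 without the cells with a primary pigment marker and 0.907 in the gated cells.

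In primary pigment-like cells *Crys* was lower at 3 and 7 days than at 1 day, with ratios of 0.241 (0.215 to 0.269) and 0.241 (0.196 to 0.295), and the levels of 3 and 7 days lay within each other's intervals. *retinin* had a ratio of 1.19 at 3 days and 0.781 at 7 days, and the latter turned to 1.08 when each cell had the same weight. *CG5597* and *Ccp84Ag* stood at 6.16 (3.84 to 10.2) and 4.67 (2.24 to 10.2) times their 1-day levels at 7 days. These ratios came from 25 and 66 UMIs for *CG5597* and 12 and 24 UMIs for *Ccp84Ag*. A single cell held 66.7% of the *Ccp84Ag* UMIs of the class at 1 day, and a single cell held 58.3% at 7 days. The 8 cone markers summed to 197, 241 and 545 CPM in primary pigment-like cells at the 3 ages, with 1 of them at 0 at 7 days (*zormin*), and their part in these ratios was not tested. Among 2004 genes with 20 or more UMIs in this class, 12.2% were at least 2-fold higher and 15.8% at least 2-fold lower at 7 days.

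*Cpr72Ec* in other pigment-like cells had a ratio of 0.864 (0.785 to 0.95) at 3 days and 3.39 (3.13 to 3.67) at 7 days. Of 7076 genes with 20 or more UMIs in this class, 2.36% were at least 2-fold higher at 7 days and 2.73% at least 2-fold lower. The 9 markers of other pigment cells summed to 5902, 5263 and 5788 CPM and the 11 photoreceptor markers to 22828, 59897 and 21981 CPM in these cells at 1, 3 and 7 days, with none at 0. The part of either in the *Cpr72Ec* ratios was not tested. Over all barcodes *Cpr72Ec* had a 7-day ratio of 2.97, where 0.778% of 8738 genes were at least 2-fold higher and 1.44% at least 2-fold lower. *retinin* in R1-6-like cells had a 7-day ratio of 0.998 (0.947 to 1.05), where 0.643% of 7003 genes were at least 2-fold higher and 3.07% lower.

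**Figure D5:**
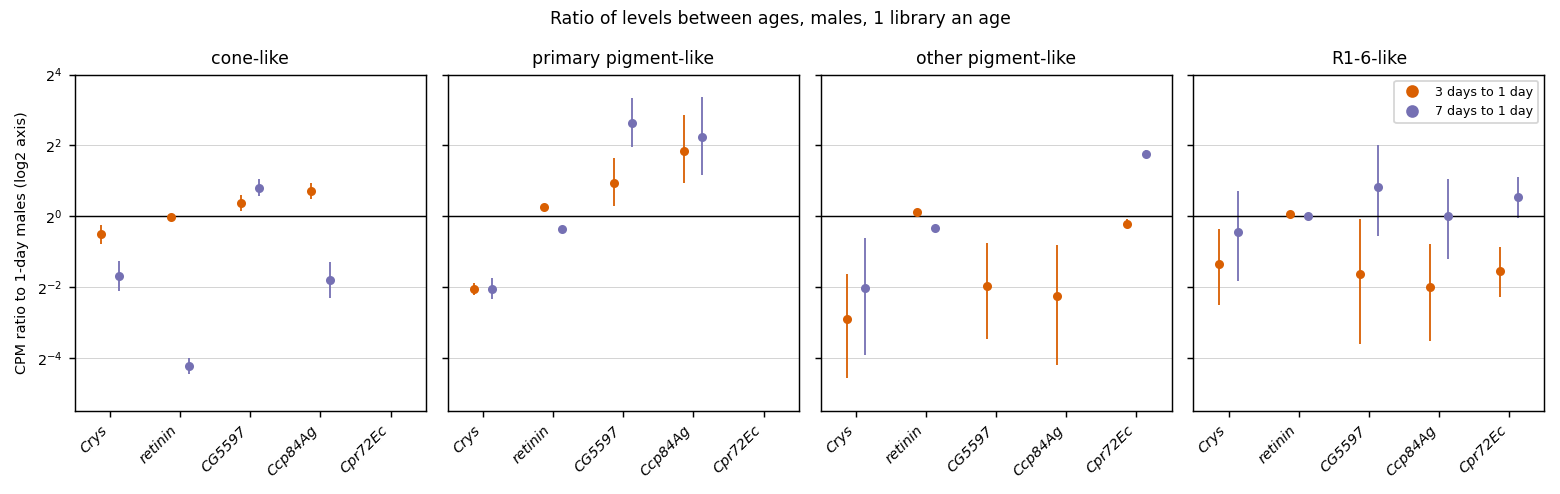
Ratio of CPM at 3 or 7 days to that of 1-day males (log2 axis) for the 5 genes in 4 classes, with 95% counting intervals; pairs with fewer than 4 UMIs on either side are left out. *retinin* in cone-like cells had the lowest 7-day ratio, 0.0536, and *CG5597* in primary pigment-like cells the highest, 6.16.

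Other cuticle genes of other pigment-like cells were set beside *Cpr72Ec*, counted on the log2(CPM + 10) scale. Of 38 listed cuticle, chitin, apical matrix and tanning genes with 20 or more UMIs there, 9 were at least 2-fold lower at 7 days than at 1 day and 1 was at least 2-fold higher, beside the 2.73% and 2.36% of all genes, and the rest passed in neither direction. Among 16 of them with cuticle protein symbols, 5 were lower and 0 higher. These 16 include *Cpr*, which was taken in by its spelling alone and passed in neither direction. The genes named here were picked after their values were seen. *Cpr49Ag* was at 3512, 933 and 318 CPM at 1, 3 and 7 days, *Cpr49Af* at 132, 80.8 and 47.8 CPM and *Cpr62Bb* at 126, 69.8 and 43.7 CPM. Of the chitin genes, *verm*, a chitin deacetylase, was at 269, 137 and 47.8 CPM and *Gasp*, a chitin-binding protein, at 319, 51.0 and 29.7 CPM. The 1 gene that was higher was *Ddc*, whose product makes dopamine for tanning, at 17.1, 40.4 and 74.9 CPM. In plain ratios of CPM *obst-A* (2.74), *Cpr67B* (2.33) and *Cda5* (2.24) were also more than 2-fold higher at 7 days, from 11, 11 and 36 UMIs. A larger number of genes were more than 2-fold lower in plain ratios alone. Among them were *Cpr73D* (0.0706), *Cpr100A* (0.216) and *Cpr97Eb* (0.268), from 1, 2 and 3 UMIs at 7 days.

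The female library had no cone-like or primary pigment-like cluster. Of its 29230 *retinin* UMIs, 41.2% lay in unnamed clusters and 27.5% in barcodes outside the limits on genes and mitochondrial share. One unnamed cluster of 502 cells with a median of 856 UMIs had *retinin* at 15662 CPM, with a UMI in 28.3% of its cells. A gate on markers found 7 cone-like and 4 primary pigment-like cells within the limits. The 4 primary pigment-like cells all had *retinin*, at 406410 CPM, and *Crys*, at 643 CPM, and of the 7 cone-like cells 3 had *Crys*, at 232 CPM (130 to 383), and 3 had *CG5597*, at 325 CPM (201 to 497). Over all barcodes the female library was 12.6-fold lower than that of 1-day males in *Crys*, 5.51-fold in *retinin*, 8.81-fold in *CG5597*, 35.3-fold in *Ccp84Ag* and 1.82-fold in *Cpr72Ec*. In other pigment-like cells *Cpr72Ec* was 1.32 times higher in females (1.2 to 1.46), and *retinin* was 4.44-fold lower. These female cells had a median of 5924.5 UMIs, against 1496 in 1-day males. The marker gate found 1271 other pigment-like cells in females, against 406 in the clusters. Of the female *Cpr72Ec* UMIs, 21.3% lay in unnamed clusters. The clustered values of females therefore rest on a part of such cells. When other pigment-like cells were picked by the gate, *Cpr72Ec* was lower in females. It was at 79.7 CPM (74.1 to 85.7) there against 89.4 CPM (85.2 to 93.7) in 1-day males, so its direction was not stable.

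The genes most like each of the 5 were sought by the Pearson correlation of log2(CPM + 10) over 18 sums of 6 classes and 3 male libraries, among 7622 other genes. These correlations describe shared places of expression, since the sums share libraries and few classes set them. *retinin* was closest to *Nplp3* (r = 0.999), which is also its neighbour at 13243 bases and averaged 159341 CPM in primary pigment-like cells, 29688 CPM in cone-like cells and 1219 CPM in other pigment-like cells. *CG4928* and *ringer* followed at 0.984 and 0.979. *Crys* was closest to *uzip* (0.988), *fog* (0.987) and *Mcr* (0.984), *CG5597* to *Esyt2* (0.993), *CG33939* (0.992) and *mwh* (0.992), and *Ccp84Ag* to *TwdlE* (0.994), *CG1632* (0.993), a marker used to name cone-like cells, and *cher* (0.988). *Cpr72Ec* was closest to *Ctr1B* (0.968), *CG31300* (0.966) and *CG13116* (0.959). Among the 5 themselves, *CG5597* and *Ccp84Ag* were the most alike (0.981), *Crys* followed with *CG5597* (0.914), *Ccp84Ag* (0.901) and *retinin* (0.878), and *Cpr72Ec* ranged from -0.193 to 0.0603 with the others.

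The neighbourhoods of the genes were mixed. Within 20000 bases, *retinin* had 22 annotated neighbours, of which 18 were in the tables and 7 had at least 50 UMIs over the male classes. *Nplp3* led with 245827 of 286263 UMIs in primary pigment-like cells. *mRpS34* had 21 of 10115 UMIs there, *Golgin104* 8 of 712 and *Tcs3* 2 of 573. *CG33060* had 43 of 108 UMIs there, and *CG13041* and *CG13056*, picked after their values were seen, had 86 of 107 and 51 of 69. *Cpr72Ec* had 11 such neighbours. Among them *Pdh*, the photoreceptor dehydrogenase of pigment cells, had 2462884 of 2791813 UMIs in other pigment-like cells and *CG4842* had 65920 of 70910. *mRpS34* had 802 of 10115 there and *Agpat3* 606 of 1988. *ringer* had 641 of 1467 there and 697 in primary pigment-like cells. *CG5597* had 11, led by *Nap1* with 22139 UMIs, and *Crys* had 1, *Pde1c*, with 23 of its 4955 UMIs in cone-like cells. *Ccp84Ag* had none.

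The wider set of cuticle genes was compared between the classes with the edgeR quasi-likelihood test on counts summed per male library and class, with Benjamini-Hochberg adjustment over all 6886 genes tested. Its genes comprised 120 other cuticle protein symbols, 19 genes of chitin metabolism and 8 of cuticle tanning. Another 12 were of the zona pellucida (ZP) family that tie cells to the apical matrix, and 39 in all could be tested. The cuticle symbols were matched by spelling, which took in *Cpr*, a gene not shown here to encode a cuticle protein. *Cpr* was tested and called in no contrast. The 3 ages served as repeats of a class, with library as a block, and no gene of the set was used for clustering. Calls needed an adjusted p below 0.05 and a log2 fold change beyond 1 in size. The block takes out differences between ages that all classes share. Since the repeats were ages, the spread behind these p-values includes how the differences between classes varied from age to age. Sums of all 6 classes, photoreceptors among them, entered a single fit with a shared estimate of the spread. That spread is therefore not that of the compared classes alone.

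Between cone-like and primary pigment-like cells, 4 of 39 were higher in cone-like and 10 in primary pigment-like cells, beside 5.42% and 10.9% of all genes, and the median log2 difference was -1.08 beside -0.30 for all genes. Higher in cone-like cells were *Ddc* (281, 150 and 297 CPM against 11.3, 4.98 and 5.30 CPM, log2 difference 3.48 ± 0.56 SE, adjusted p = 1.47e-04 by edgeR), *Cpr49Ae* (2.86 ± 0.54), *TwdlE* (2.72 ± 0.44), both cuticle proteins, and *qsm* (2.30 ± 0.31), of the ZP family. Chitin genes were higher in primary pigment-like cells in 6 of 13 tested and lower in 0. Of the tanning genes *AANAT1* was higher (3.96 ± 1.00 on the log2 scale), and so was *ple*, the tyrosine hydroxylase, with 14, 7 and 2 UMIs in primary pigment-like and none in cone-like cells. *Cpr92F*, with 5, 7 and 3 UMIs, and *verm*, a chitin deacetylase with 10, 5 and 0 UMIs, likewise had none in cone-like cells. *Cda5*, another deacetylase, had 21, 10 and 3 UMIs against 0, 1 and 0. Cone-like cells held 0.094%, 0.135% and 0.229% of all UMIs of these libraries and primary pigment-like cells 0.448%, 1.81% and 1.07%. Counts of 0 in cone-like cells therefore do not show absence. Without the 1-day male library 8 genes were called in place of 14.

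Primary pigment-like cells exceeded other pigment-like cells in 19 of 39 and were lower in 8, beside 9.28% and 12.5% of all genes, with a median log2 difference of 1.72 beside -0.25. The chitin list had 9 of 13 higher and 1 lower. *obst-E*, a chitin-binding protein, was at 706, 793 and 974 CPM against 6.59, 5.19 and 8.04 CPM (log2 difference 7.48 ± 0.26, adjusted p = 4.78e-14 by edgeR), and *dpy*, the giant ZP protein Dumpy, at 2017, 911 and 948 CPM against 107, 12.5 and 9.05 CPM. *obst-B* (6.30 ± 0.71), *TwdlE* (6.07 ± 0.62) and *Cht7*, a chitinase with 4, 0 and 1 UMIs against none, were also higher. Lower were *Cpr49Af* (-4.92 ± 0.62), *Cpr49Ag* (-4.23 ± 0.45), *Cpr62Bb* (-4.19 ± 0.70), *verm* (-3.46 ± 0.40) and *Cpr62Ba*, with no UMI in primary pigment-like cells against 256, 70 and 25 in other pigment-like cells.

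Cone-like cells exceeded other pigment-like cells in 14 of 39 and were lower in 10, beside 9.92% and 21.7% of all genes, with a median of 1.09 beside -0.56. All 5 ZP genes tested were higher in cone-like cells, *dpy* (6.50 ± 0.46), *qsm* (4.57 ± 0.30), *cyr* (4.26 ± 0.86), *pio* (2.91 ± 0.30) and *tyn* (2.56 ± 0.62), of which *cyr* had 6, 2 and 0 UMIs in cone-like cells. *qsm*, *cyr*, *pio* and *tyn* are named for being the whole list and not for their rank. *TwdlE* (8.79 ± 0.52), *obst-E* (5.88 ± 0.26), *Cpr49Ae* (4.78 ± 0.51) and *Cht7*, with 6, 1 and 0 UMIs against none, were among the other higher genes. Lower were *Cpr49Ag* (-5.96 ± 0.60) and *verm*, *Cpr62Bb*, *b* and *Cpr62Ba*. These last had no UMI in cone-like cells and 269, 126, 38.8 and 22.5 CPM in other pigment-like cells of 1-day males. In so small a class, the missing UMIs of *b* and *Cpr62Ba* do not show absence. The cuticle protein symbols were split between the classes: the highest level of these was that of *Cpr49Ae* in cone-like cells, *Cpr100A* in primary pigment-like cells and *Cpr49Ag* in other pigment-like cells, and 95 of the 120 had no UMI in cone-like and primary pigment-like cells.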

How the data were processed

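Single-cell 3' libraries were made from eyes of *Canton-S* flies (3 of males, 1 of females). The deposited count tables hold whole UMI counts per gene and barcode, made by the authors from their reads (the submitters' processing notes name Cell Ranger 6.0.1 and dm6). The counts carry no correction for free RNA, although the study removed it later with SoupX. The 5 genes and all gene lists were chosen with earlier results of these data known.

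Barcodes with at least 200 genes, at most 3500, 2800, 2700 and 4000 genes and under 20%, 25%, 18% and 25% mitochondrial UMIs (1-, 3-, 7-day males and females) were kept, following the study. They were clustered per library with Seurat 5.3.0 and sctransform 0.4.2 (50 principal components, resolution 0.8, subdivision at 0.5) without the 5 genes and the listed genes. Neurons (*fne* from 500 CPM) and glia (*repo* from 50 CPM) were set aside by cluster, and other clusters were named from raised markers (2-fold with 20 CPM added, at least 0.5 of a list). Scrublet's automatic threshold marked 887, 1, 1 and 1 barcodes, so doublets were kept, and removing a preset share (11.03%, 6.392%, 4.718% and 5.646%) was an alternative.

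Counts were summed per library and class, since cells are not replicates and each age and sex had 1 library. Listed genes were tested with edgeR 4.0.16 (quasi-likelihood, TMM, library as a block, Benjamini-Hochberg adjustment), with DESeq2 1.42.0 as an alternative. On simulated data for the cone-like against primary pigment-like comparison, 192 of 200 genes changed 4-fold were recovered among 6190 genes, with 12 false calls. The simulated classes had the same mean profile apart from these genes and a fixed spread. The changed genes were drawn from those with higher counts. These figures therefore do not carry over to calls that rest on few UMIs. Age ratios of the 5 genes are plain CPM ratios, and counts of genes past 2-fold used genes with 20 or more UMIs and 10 CPM added. R 4.3.3, Python 3.11.15, scipy 1.17.1 and scanpy 1.11.5 were used. Named genes were the 5, up to 5 called listed genes each way per contrast, the 3 most correlated genes and up to 5 neighbours within 20000 bases by UMIs. Other exceptions are stated where they occur. Where a count was 0, a limit of 3 UMIs was used.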

Additional observations from a re-analysis of the deposited data

Results flagged for a closer look

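*CG5597* and *Ccp84Ag* stood out because their differences between 7 and 1 day pointed in opposite directions in different classes, each age being 1 library, and the difference between classes was not tested. *CG5597* had a ratio of 7 days to 1 day of 1.74 in cone-like, 6.16 in primary pigment-like and 0.296 in other pigment-like cells. *Ccp84Ag* had 0.288 in cone-like, 4.67 in primary pigment-like and 0.122 in other pigment-like cells. In each library a single primary pigment-like cell held most of the *Ccp84Ag* UMIs of that class, 66.7% at 1 day and 58.3% at 7 days. The levels in other pigment-like cells rested on 58 and 3 UMIs for *CG5597* and 47 and 1 UMI for *Ccp84Ag*.

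Barcodes that failed the limits on genes or mitochondrial share, and entered no class but only the totals over all barcodes, also carried *retinin*. At least 5% of UMIs came from *retinin* in 54, 42 and 26 such barcodes of 1-, 3- and 7-day males and in 27 of females, of 174, 145, 78 and 43 barcodes with that share in all. Their median depth was 949, 739, 629 and 888 UMIs and their median mitochondrial share 26.4%, 23.8%, 21.2% and 26.1%, against 4.52%, 3.26% and 5.55% in the primary pigment-like cells of the male libraries. *retinin* was thus present at a high share in barcodes of females, where no primary pigment-like cluster was found.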

How the results depend on the processing

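Across alternatives, 192 of 237 values stayed within the spread between libraries (age ratios within their counting interval, counts of genes within 1.5 times), 42 moved by more and 3 reversed. Those on cells with *ninaE*, cells with a primary pigment marker, equal weight for each cell and 500 UMIs were chosen after seeing the data. No cause of these shifts was tested. For levels by class and in R1-6-like cells, leaving out 1 of the 3 male libraries cannot shift the mean by as much as that spread. Such alternatives were bound to count as unmoved, so their number is no measure of stability. For *retinin* in R1-6-like cells the 3 alternatives that stayed were all of this kind, and 8 moved.

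With the marker gate the mean log2 ratio of cone-like over primary pigment-like cells for *Crys* went from 1.52 to 0.73, and its direction at 1 day turned. With equal weight for each cell, the log2 ratio of cone-like over primary pigment-like cells for *CG5597* went from 5.03 to 6.17, and without cone-like cells that carried a primary pigment marker the log2 ratio of primary pigment-like over cone-like cells for *retinin* went from 3.49 to 6.42. In R1-6-like cells, *retinin* at 259 CPM became 248 with the 5 genes and listed genes kept in clustering, 269.8 at resolution 1.2, 273 with log-normalised clustering, 238 with a marker gate, 248 with doublets removed, 83.4 with 5% free RNA removed, 331 with a total without mitochondrial genes, *ninaE* and the 5 genes, and 456 with equal weight for each cell. With free RNA removed *Crys* went from 0.994 to 0.313 CPM and *CG5597* from 0.692 to 0.189 CPM, *Cpr72Ec* went from 3.12 to 5.93 CPM with log-normalised clustering and *Ccp84Ag* from 0.992 to 2.40 CPM with equal weight. The removal of free RNA left no count of *retinin*, *Crys* or *CG5597* in R1-6-like cells of 3-day males, which lowers these means.

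For the ratio of 7 days to 1 day in cone-like cells, *Crys* (0.312) became 0.701 with the gate, 0.200 without cells with a primary pigment marker and 0.164 at 1000 UMIs. *retinin* (0.0536) became 0.0432 with log-normalised clustering, 0.907 with the gate, 0.110 without cells with 1% of *ninaE*, 0.387 without cells with a primary pigment marker, 0.113 with equal weight, 0.170 at 1000 UMIs and 0.121 at 500 UMIs. *CG5597* (1.74) became 1.38 with log-normalised clustering, 3.04 with the gate, 0.999 without cells with a primary pigment marker, 1.28 with equal weight, 1.19 at 1000 UMIs and 1.37 at 500 UMIs, and *Ccp84Ag* (0.288) became 0.786 with the gate. In primary pigment-like cells, *Crys* (0.241) became 0.188 with the gate and 0.163 at 1000 and at 500 UMIs. *retinin* there (0.781) became 0.735 with log-normalised clustering, 0.675 with the gate, 0.754 without cells with 1% of *ninaE*, 0.697 with the reduced total, 1.08 with equal weight, 0.908 at 1000 UMIs and 1.11 at 500 UMIs, so its direction was not stable. *Cpr72Ec* in other pigment-like cells (3.39) became 4.89 with the gate, 2.99 with equal weight and 2.87 at 500 UMIs.

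Leaving out 1 library at a time gave 8 to 11 listed genes for cone-like against primary pigment-like cells (14 with all, 8 without the 1-day male library), 21 to 22 for primary against other pigment-like cells (27 with all) and 16 to 20 for cone-like against other pigment-like cells (24 with all). The log2 ratios of cone-like over primary pigment-like cells ranged from 1.07 to 1.83 for *Crys*, 4.69 to 5.50 for *CG5597* and 4.21 to 6.05 for *Ccp84Ag*, those of primary over cone-like cells from 2.25 to 4.18 for *retinin* and those of other over primary pigment-like cells from 2.94 to 4.02 for *Cpr72Ec*. R1-6-like levels ranged from 0.445 to 0.929 CPM for *CG5597*, 0.822 to 1.33 for *Ccp84Ag*, 2.24 to 4.11 for *Cpr72Ec*, 0.791 to 1.22 for *Crys* and 255 to 262 for *retinin*. DESeq2 called 11, 25 and 24 and edgeR without the library block 10, 22 and 23 listed genes. The class contrasts were paired within library by that block. No paired analysis was possible because, for ages and sexes, each had 1 library. The small number of cone-like cells, 18 to 28, and of UMIs in them limits the age ratios.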
